A study of Homo sapiens with 23 samples.

Results

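Matrix metalloproteinases (MMPs) are secreted or membrane-bound zinc enzymes that cut collagens, laminins, growth factor precursors and other proteins around the cell. They are made as inactive precursors, are activated by removal of a propeptide, and are blocked by the tissue inhibitors of metalloproteinases (TIMPs). In tumours of epithelial origin they are known for their part in invasion, and several of their genes are classical targets of the transcription factor AP-1, which is built from Jun and Fos proteins.

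10 genes of this system were examined, of 61806 genes listed for the first libraries and 42901 for the deep libraries. They comprise the collagenases *MMP1* and *MMP13*, the stromelysins *MMP3* and *MMP10*, the gelatinase *MMP2*, the matrilysin *MMP7*, the membrane-type proteinase *MMP14*, and the inhibitors *TIMP1*, *TIMP2* and *TIMP3*. They were chosen from measured values of these data, because *MMP1* was the most changed matrix gene in the shRNA knockdown shD3 #1 and in the siRNA knockdown siD3 #3. Values of those 2 comparisons are therefore given as a description, without a p-value. The comparison of shD3 #4 did not enter that choice and was tested. The deep libraries were tested as well, but they measure shD3 #1 again. *MMP1* was chosen through that knockdown, so its deep values are a description too.

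A549, an established human lung adenocarcinoma line, was depleted of THUMPD3, an enzyme that places m2G in tRNA. An siRNA was transfected (siD3 #3, control siControl), or doxycycline-inducible lentiviral shRNAs were used in puromycin-selected cells (shD3 #1 and shD3 #4, controls sh1Control and sh4Control). Controls are labelled WT and knockdowns THUMPD3 knockdown. The study's methods call them untreated and treated, and do not say whether the shRNA controls received doxycycline. An effect of doxycycline thus cannot be told apart from that of the shRNAs. Cells with siRNA and with shRNA were harvested at different times after the start of treatment. Each of the 8 groups held 3 biological replicates except siControl, of which 2 libraries were analysed here, and shD3 #1 with sh1Control was measured again in 6 deep libraries. Whether these came from a separate induction was not given in the sources used here, and their table lists other genes, so a difference between first and deep libraries cannot be assigned to depth. All values are RNA levels in bulk cultures, so more RNA per cell and more cells with the RNA cannot be told apart.

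Library totals ran from 9854294 to 22101059 counts in the 17 first libraries, from 51101905 to 59974740 in the deep controls and from 27285889 to 35458367 in deep shD3 #1. All 12 knockdown libraries had less *THUMPD3* RNA than their controls, with a log2 fold change of -0.97 for shD3 #1, of -1.67 for shD3 #4, of -2.54 for siD3 #3 and of -1.01 for deep shD3 #1. The cells expressed epithelial genes throughout, with a summed level of 6 markers of 3835 to 7666 cpm, a normalised read count, in all 23 libraries. Most of that sum was *KRT8*, *KRT18* and *KRT7*. For shD3 #4, 1 of these 6 markers was called lower, and for deep shD3 #1, 4 were called higher and 1 lower. For shD3 #1, 2 were called higher and 1 lower, and for siD3 #3, 1 higher and 0 lower. The shares called over all genes, against which counts of markers are to be read, are given below. The marker lower in shD3 #1 and deep shD3 #1 was *CDH1*. It held 38.3 to 47.1 cpm in shD3 #1 against 111 to 123 cpm, and 78.9 to 82.5 cpm in deep shD3 #1 against 200 to 225 cpm. Of 6 leukocyte markers, *PTPRC*, *CD3E* and *CSF1R* stayed at or below 0.228 cpm, and *CD14* was present in every library at 1.96 to 7.20 cpm and was called lower in shD3 #1. *LYZ* lay between 0 and 0.760 cpm and was called higher in deep shD3 #1. *CD68* lay between 0 and 0.393 cpm in the first libraries but between 45.3 and 97.6 cpm in the deep ones, so levels were not compared between these 2 sets.

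Among the members, promoter sequences of 5 were at hand in RefSeq on GRCh38.p14, those of *MMP7*, *MMP10*, *MMP14*, *TIMP1* and *TIMP3*. *MMP1*, *MMP2*, *MMP3*, *MMP13* and *TIMP2* had no entry. Among the 5 with an entry, the AP-1 motif was searched as TGANTCA, with N for any base. It was found within 250 bases before the start in *MMP7* and *MMP10* and not in the other 3. *MMP7* matched as TGAGTCA and *MMP10* as TGAATCA, so the middle base differed. The motif reads the same on both strands and was present in 6.57% of all 35116 promoters in the table. The 100 bases that end just before the start are shown for these 2 genes, because they match the same search motifs in nearly the same place. The AP-1 motif and the TATA motif TATAAA are in capitals.

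MMP7: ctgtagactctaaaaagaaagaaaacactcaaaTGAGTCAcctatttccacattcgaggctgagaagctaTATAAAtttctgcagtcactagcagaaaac

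MMP10: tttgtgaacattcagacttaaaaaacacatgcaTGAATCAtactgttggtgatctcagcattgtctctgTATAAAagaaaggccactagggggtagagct

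The *MMP7* stretch lies at chr11:102530748-102530847 and the *MMP10* stretch at chr11:102780629-102780728, both read on the minus strand. The AP-1 motif began 67 bases before the start in both genes. The TATA motif followed 37 bases further on in *MMP7* and 36 in *MMP10*. Both motifs together stood within 100 bases before the start, on the gene's strand, in 52 of the 35116 promoters (0.148%). TATAAA or its reverse was found in the 250-base window of 10.7% of promoters, and in none of *MMP14*, *TIMP1* and *TIMP3*. GC content of that window was 33.6% in *MMP7* and 34.4% in *MMP10*, against 56.8% to 72.4% in the other 3 members and a median of 58% over all promoters. A match is a string of letters and not evidence of binding.

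In A549 controls the system was dominated by 3 transcripts. Expressed per kilobase of exon (cpm per kb), the scale used here whenever genes are compared with each other, *TIMP1* stood at 45.5 ± 2.53 (SD, n = 3) in sh1Control. *MMP7* followed at 20.8 ± 1.19 and *TIMP2* at 10.7 ± 0.638, with no overlap between libraries of neighbouring genes. *MMP2* at 0.610 ± 0.0811 and *MMP14* at 0.438 ± 0.0251 came next. *MMP10* and *TIMP3* followed with 0.0918 and 0.0865 cpm per kb on average, which overlapped between libraries. *MMP1* had 1 count in the 3 sh1Control libraries together, and *MMP3* and *MMP13* had none.

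The order of the 3 leading transcripts in sh4Control was the same. It was another in deep sh1Control, where *TIMP2* at 60.9 ± 1.71 cpm per kb (SD, n = 3) stood above *MMP7* at 28.1 ± 1.23. *TIMP1* led there at 95.1 ± 2.90 cpm per kb. In siControl *MMP7* (33.7 and 42.3 cpm per kb) overlapped *TIMP1* (34.2 and 38.1). In every library of the series *MMP7* supplied most of the summed RNA of the 7 MMPs, from 81.7% to 98.7%. *MMP1* supplied at most 0.0932% of it in any control library and 4.02% to 5.69% in shD3 #1. Its share was 0.262% to 1.67% in siD3 #3, 0 to 0.242% in shD3 #4 and 0.416% to 0.768% in deep shD3 #1.

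*MMP1*, the interstitial collagenase that starts the cleavage of fibrillar collagen, went from the limit of detection to a low but countable level in shD3 #1 and siD3 #3, and stayed near the limit in shD3 #4. In sh1Control it had 0, 1 and 0 counts and in shD3 #1 34, 37 and 31 counts. In siControl it had 1 and 1 counts and in siD3 #3 20, 16 and 62. In sh4Control it had 0, 1 and 1 counts and in shD3 #4 4, 1 and 0.

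All shD3 #1 and siD3 #3 libraries thus lay above their controls, whereas shD3 #4 overlapped with sh4Control. As normalised levels, shD3 #1 held 2.39 ± 0.590 cpm (SD, n = 3) and siD3 #3 1.68 ± 1.27 cpm (n = 3). The third siD3 #3 library, at 3.15 cpm, was above the other two, at 0.936 and 0.965 cpm. shD3 #4 held 0.0820 ± 0.0968 cpm.

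Because the control counts were so low, ratios of pooled counts are given before the fitted fold change. The pooled ratio was 130 in shD3 #1 (1 against 102 counts, exact 95% interval 22.9 to 5197) and 27.3 in siD3 #3 (2 against 98 counts, 7.35 to 228). In shD3 #4 it was 2.59 (2 against 5 counts, 0.425 to 27.2), an interval that holds no change as well as large ones. These intervals cover counting error only. The fitted log2 fold change, which depends on the small prior count added in the fit, was 6.56 (SE 0.575) in shD3 #1 and 4.62 (SE 1.02) in siD3 #3. It became 8.30 without sh1Control replicate 2, the only one of its group with a count, and 3.77 without siD3 #3 replicate 3. *MMP1* did not pass the edgeR filter on low counts in shD3 #4. With every gene of at least 1 count admitted, its log2 fold change there was 1.22 (SE 1.29, adjusted p = 0.589, edgeR).

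The deep libraries measure shD3 #1 again, a knockdown through which *MMP1* was chosen, so its values there are a description. Deep sh1Control had 1, 1 and 2 counts and deep shD3 #1 had 16, 8 and 22 counts, so the groups did not overlap. It passed the filter only through the knockdown libraries, so its fitted log2 fold change of 4.16 (SE 0.558) is a description. With every gene of at least 1 count admitted, a filter that does not look at the groups, the log2 fold change of *MMP1* was 4.13 (SE 0.705, edgeR, higher in 3 of 3 libraries). The pooled ratio was 20.1 (4 against 46 counts, 7.35 to 76.9). At 0.474 ± 0.163 cpm (SD, n = 3) against 0.0243 ± 0.0103 cpm it remained a rare transcript.

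The levels of *MMP1* were not ordered as those of *THUMPD3* were. *THUMPD3* was at 30.4 ± 1.17 cpm in shD3 #1 and at 19.7 ± 0.552 cpm in shD3 #4, yet *MMP1* was at 2.39 and 0.0820 cpm. The difference in *MMP1* between these knockdowns was not tested. The summed level of 8 fibroblast markers, another possible source of *MMP1* RNA, was 8.28 to 10.3 cpm in sh1Control and 17.5 to 19.5 cpm in shD3 #1, with 3 of 5 tested markers called higher (*COL3A1*, *LUM* and *COL1A1*). *COL3A1* went from 0.407 to 0.794 cpm in sh1Control to 6.09 to 6.45 cpm in shD3 #1. In sh4Control the sum was 6.82 to 10.2 and in shD3 #4 12.4 to 15.5 cpm, where *MMP1* stayed near 0 and 2 of 4 tested markers were called higher. In siControl it was 5.03 to 7.31 and in siD3 #3 9.42 to 12 cpm, with 1 of 4 called higher (*LUM*). Among deep libraries it was 10.9 to 11.9 in controls and 32.2 to 33.9 in shD3 #1, with 4 of 5 tested markers called higher and 1 lower. The lower one was *THY1*, at 0.637 to 0.731 cpm against 2.27 to 2.99 cpm in deep controls. The fibroblast marker *DCN* had no count in sh1Control, shD3 #1 or the deep libraries. In any library *COL1A2* had 0 to 4 counts and *PDGFRB* 0 to 10. Over all genes tested, 14.5% were called higher in shD3 #1, 8.00% in shD3 #4 and 12.5% in siD3 #3. In the deep libraries 15.0% were called higher and 14.1% lower. Whether fibroblasts were present, and their part in the *MMP1* values, was not tested.

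*MMP1* lies at chr11:102789401-102798160 on the minus strand (GRCh38). The pseudogene transcript *WTAPP1* runs across *MMP10*, *MMP1* and *MMP3* on the opposite strand and shares 223 exon bases with *MMP1* and 32 with *MMP3*. *WTAPP1* had 8 pooled counts in sh1Control and 34 in shD3 #1, a ratio of 5.43 (2.47 to 13.6), and 6 and 56 in the deep groups, a ratio of 16.3 (7.05 to 46.4). In siD3 #3 its ratio was 1.67 (0.725 to 4.30). Whether strand was used in counting was not given in the sources used here, so reads in the shared bases cannot be assigned between both genes.

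*MMP13*, the other collagenase, was at or near 0 counts. No count was found in the first controls or in shD3 #4. The libraries of shD3 #1 had 0, 2 and 1 counts, and those of siD3 #3 had 3, 2 and 1. Against the 3 counts that an observed 0 allows for a group, the *MMP13* ratio in siD3 #3 was 1.11, without counting error in the knockdown. In the deep libraries it had 1, 0 and 0 counts in controls and 0, 3 and 1 in shD3 #1, a ratio of 7.0 with an interval of 0.692 to 345. It passed the main filter in no comparison. With every gene of at least 1 count admitted, its log2 fold change in the deep libraries was 2.35 (SE 1.69, adjusted p = 0.285, edgeR).

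**Figure D1:**
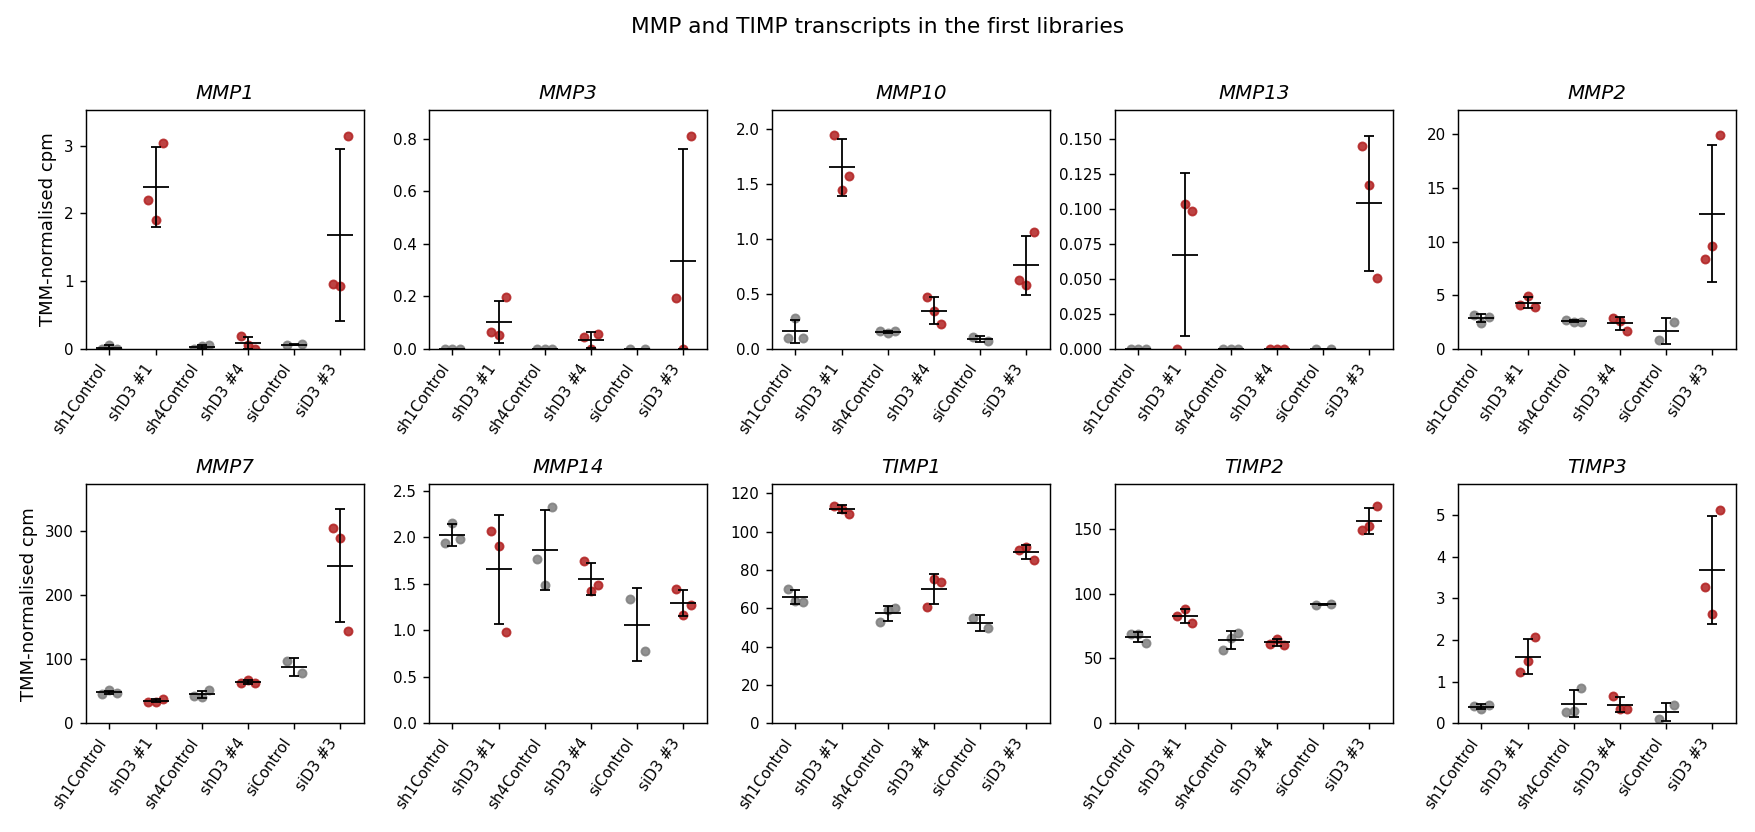
TMM-normalised read counts (cpm, linear axes, each with its own scale from 0) of the 10 genes in the 17 first libraries. Grey points are control libraries and red points knockdown libraries, dashes are group means and bars SDs, with lower ends stopped at 0. *MMP1* reached 1.91 to 3.05 cpm in shD3 #1 and 0.936 to 3.15 cpm in siD3 #3 against 0 to 0.189 cpm in all other groups.

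*MMP10* (stromelysin 2, chr11:102770502-102780628), an activator of procollagenases, lay on the same side of its controls as *MMP1*, but had counts in every library. It had 2, 5 and 2 counts in sh1Control and 30, 28 and 16 in shD3 #1. siControl had 2 and 1 counts and siD3 #3 13, 10 and 21. Both knockdowns were above their controls in all libraries.

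The pooled ratio of *MMP10* was 10.5 (9 against 74 counts, 5.24 to 23.9) in shD3 #1 and 8.16 (3 against 44 counts, 2.61 to 41.1) in siD3 #3. In shD3 #4 the libraries had 10, 6 and 4 counts against 3, 3 and 3 in sh4Control. They did not overlap, and the ratio was 2.31 (9 against 20 counts, 1.00 to 5.75). In deep shD3 #1 there were 8, 5 and 13 counts against 3, 1 and 1, again without overlap, and the ratio was 9.10 (5 against 26 counts, 3.44 to 30.3). The filter on low counts removed *MMP10* from both tested comparisons. With every gene of at least 1 count admitted, *MMP10* rose in the deep libraries by 3.03 on the log2 scale (SE 0.818, adjusted p = 7.53e-04, edgeR). DESeq2 gave it a larger adjusted p there, of 0.00434 (log2 fold change 3.17, SE 0.997). In shD3 #4 its log2 fold change with that filter was 1.17 (SE 0.621, adjusted p = 0.214, edgeR). The fitted log2 fold changes were 3.35 (SE 0.403) in shD3 #1, or 3.96 without sh1Control replicate 2, and 2.94 (SE 0.647) in siD3 #3.

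*MMP3* (stromelysin 1, chr11:102835801-102843609), which cuts basement membrane proteins and activates *MMP1* protein, was at 0 in all 8 first control libraries. The libraries of shD3 #1 had 1, 1 and 2 counts, those of shD3 #4 had 1, 0 and 1, and those of siD3 #3 had 4, 0 and 16. The third siD3 #3 library therefore carried most of its counts. Against the floor of 3 counts per group the ratio of *MMP3* was 1.70 in shD3 #1 and 3.71 in siD3 #3. These ratios leave out counting error in the knockdown and are not lower limits. *MMP3* had no count in any of the 6 deep libraries, among them 3 of shD3 #1.

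9 MMP genes lie side by side on chromosome 11, in the order *MMP7*, *MMP20*, *MMP27*, *MMP8*, *MMP10*, *MMP1*, *MMP3*, *MMP12* and *MMP13*, and counts were unevenly spread over them. *MMP7* at the outer end was abundant everywhere. *MMP20*, *MMP27* and *MMP8* between it and *MMP10* had between 0 and 3 counts in any group. *MMP12*, the macrophage elastase, had no count in the 3 deep controls and 4, 2 and 7 counts in deep shD3 #1. Set against the floor of 3 counts, its ratio was 7.58, without counting error in the knockdown. The summed level of the 6 leukocyte markers was 52.2 to 54.7 cpm in the deep controls and 94.9 to 103 cpm in deep shD3 #1, with 2 of 3 tested called higher and nearly all of it *CD68*, and its part in the *MMP12* values was not tested. It had 1 count in all first libraries together, in siD3 #3.

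**Figure D2:**
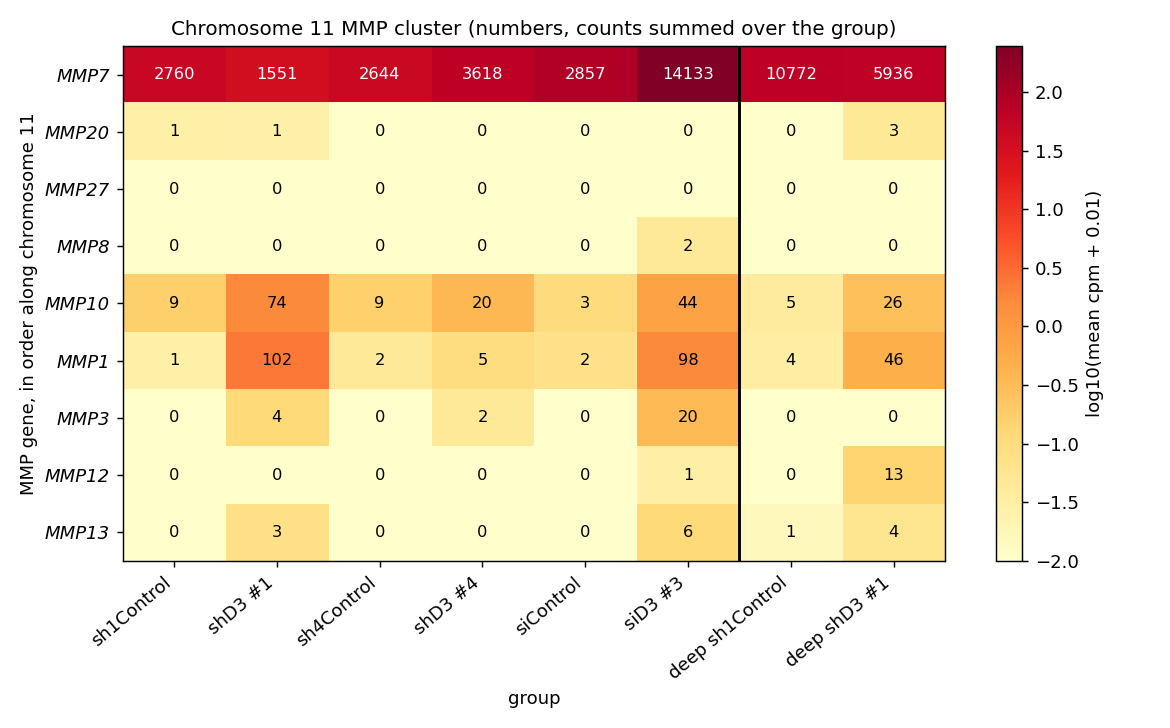
The 9 MMP genes of chromosome 11 in genomic order (rows) in the 8 groups (columns, deep groups right of the line). Colour gives log10 of the mean cpm plus 0.01, and the number in each field is the count summed over the group's libraries. *MMP10* and *MMP1* had 74 and 102 counts in shD3 #1 and 44 and 98 in siD3 #3, while *MMP7* had 1551 and 14133.

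*MMP7* (chr11:102520508-102530750), a small enzyme without a hemopexin domain that is made by epithelial cells, lay below its controls in one knockdown and above them in the other two. In sh1Control it had 46.0 to 51.3 cpm and in shD3 #1 33.2 to 37.9 cpm. In sh4Control it had 41.4 to 51.6 cpm and in shD3 #4 62.5 to 67.7 cpm. In siControl it had 78.2 and 98.1 cpm, and in siD3 #3 145, 290 and 305 cpm.

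No knockdown library overlapped with its controls, which placed shD3 #1 below, and shD3 #4 and siD3 #3 above. The log2 fold change in shD3 #4 was 0.52 (SE 0.0749, adjusted p = 3.80e-06, edgeR quasi-likelihood test). That passed the adjusted p threshold of 0.05 but not the threshold of 1.5-fold, which *MMP7* passed only without sh4Control replicate 3 (0.61). The described values were -0.45 (SE 0.0749) in shD3 #1 and 1.49 (SE 0.304) in siD3 #3, where the third library was the lowest for *MMP7* and the highest for *MMP1*. The *MMP7* call in siD3 #3 was lost without siControl replicate 2.

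For *MMP7* no difference was detectable in the deep libraries. Deep controls held 62.0 to 67.0 cpm and deep shD3 #1 56.6 to 68.4 cpm, which overlap. The log2 fold change was -0.05 (SE 0.0631, 95% interval -0.19 to 0.08, adjusted p = 0.468, edgeR). That interval does not reach the -0.45 of the first shD3 #1 libraries. The promoter motifs that *MMP7* and *MMP10* both match, shown above, stood beside lower *MMP7* and higher *MMP10* in the 3 shD3 #1 libraries. In siD3 #3 and shD3 #4 all libraries lay above their controls for both genes, and in deep shD3 #1 for *MMP10* but not for *MMP7*.

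*MMP2* (chr16:55389700-55506691), which degrades type IV collagen and denatured collagen, was higher in siD3 #3, and lay above its controls in the first shD3 #1 libraries and below them in the deep ones. siControl had 15 and 36 counts and siD3 #3 173, 164 and 392 counts. That is 0.838 and 2.56 cpm against 8.35, 9.59 and 19.9 cpm, and all 3 knockdown libraries lay above.

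In sh1Control *MMP2* had 3.16, 2.44 and 3.02 cpm, and in shD3 #1 4.08, 4.90 and 3.93 cpm. This order was turned round in the deep libraries. Deep controls had 377, 352 and 304 counts (5.48 to 6.98 cpm) and deep shD3 #1 had 100, 81 and 142 counts (2.96 to 3.93 cpm). *MMP2* fell there, with a log2 fold change of -0.88 (SE 0.134, adjusted p = 4.57e-05, edgeR, lower in 3 of 3 libraries). The described values were 0.62 (SE 0.170) in shD3 #1 and 2.95 (SE 0.547) in siD3 #3. The former was close to the threshold, and fell below it without sh1Control replicate 2 or shD3 #1 replicate 2. The latter was 2.30 without siControl replicate 1 and 3.90 without siControl replicate 2.

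In shD3 #4 *MMP2* had 30 to 61 counts against 48 to 53 in sh4Control. Its log2 fold change was -0.08 (SE 0.195, 95% interval -0.48 to 0.33, adjusted p = 0.790, edgeR). A change of the size seen in deep shD3 #1 lies outside that interval.

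*MMP14* (chr14:22836560-22849041), the membrane-type enzyme that activates *MMP2* protein at the cell surface together with *TIMP2* protein, was low throughout. Across the 17 first libraries it had 10 to 44 counts. It overlapped between knockdown and control libraries in all 3 first comparisons, with log2 fold changes of -0.20 (SE 0.242) in shD3 #1 and 0.27 (SE 0.336) in siD3 #3. In shD3 #4 it was -0.23 (SE 0.228, 95% interval -0.70 to 0.24, adjusted p = 0.452, edgeR).

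With 170, 158 and 166 counts in deep controls and 65, 52 and 62 in deep shD3 #1, *MMP14* fell in the deep libraries. Its levels were 3.01 ± 0.123 cpm and 1.91 ± 0.201 cpm (SD, n = 3 each), and the groups did not overlap. The log2 fold change was -0.66 (SE 0.150, adjusted p = 0.00152, edgeR). It was -0.58 without deep shD3 #1 replicate 3, which is below the threshold in size. *MMP2* and *MMP14*, the enzyme and its activator, thus both fell in the deep libraries, where *MMP1* rose. In shD3 #1 and siD3 #3, where *MMP1* was also higher, *MMP2* lay above its controls and *MMP14* overlapped with them.

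**Figure D3:**
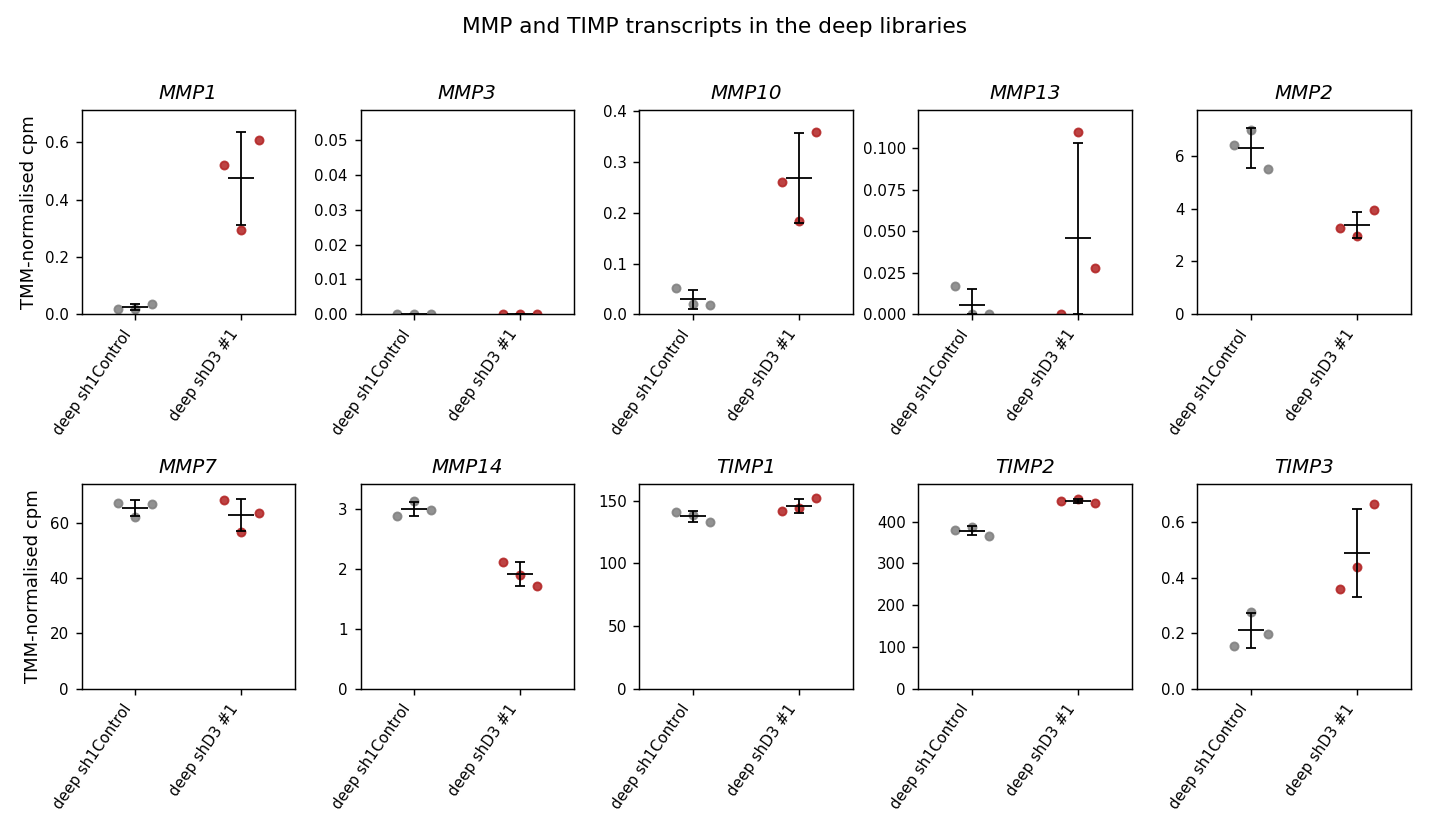
TMM-normalised read counts (cpm, linear axes from 0, each with its own scale) of the 10 genes in the 6 deep libraries, with controls in grey and shD3 #1 in red, group means as dashes and SDs as bars stopped at 0. *MMP1* and *TIMP3* were higher in shD3 #1, *MMP2* and *MMP14* were lower, and *MMP3* had no counts.

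*TIMP1* (chrX:47582408-47586789), a secreted inhibitor of most soluble MMPs, was higher in shD3 #1 and siD3 #3 by a similar amount and less so in shD3 #4. It had 63.4 to 70.0 cpm in sh1Control and 109 to 114 cpm in shD3 #1. It had 49.5 and 55.2 cpm in siControl and 85.1 to 91.9 cpm in siD3 #3. In shD3 #4 it had 60.9 to 75.2 cpm against 52.8 to 60.2 cpm in sh4Control.

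In all 3 the knockdown libraries were above their controls. The log2 fold change was 0.30 (SE 0.0767, adjusted p = 0.00270, edgeR) in shD3 #4, which passed the p threshold and not that on size. It was 0.78 (SE 0.0631) in shD3 #1 and 0.77 (SE 0.0920) in siD3 #3. For the deep libraries it was 0.09 (SE 0.0440, 95% interval -0.01 to 0.18, adjusted p = 0.106, edgeR), with 142 to 152 cpm against 133 to 141 cpm. The 0.78 of the first shD3 #1 libraries lies outside that interval.

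*TIMP2* (chr17:78852977-78925387), which besides inhibiting MMPs takes part in *MMP2* activation, was highest in siD3 #3. It had 91.1 and 92.0 cpm in siControl and 149 to 167 cpm in siD3 #3, a log2 fold change of 0.77 (SE 0.0921). In shD3 #1 it had 77.3 to 87.7 cpm against 61.9 to 69.0 cpm, a change of 0.34 (SE 0.0698). In shD3 #4 the libraries overlapped with a change of -0.02 (SE 0.0732, 95% interval -0.17 to 0.13, adjusted p = 0.831, edgeR).

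*TIMP2* was precisely measured in the deep libraries, with 12436 counts or more in each. It had 445 to 455 cpm in shD3 #1 and 367 to 388 cpm in controls. Its log2 fold change was 0.25 (SE 0.0410, adjusted p = 8.78e-05, edgeR), past the p threshold and below that on size. *TIMP2* shares 224 exon bases with *CEP295NL* on the same strand. *CEP295NL* had 3 to 39 counts in the first libraries and 85 to 201 in the deep ones, far fewer than *TIMP2*. A read on both genes may be lost to both, so these counts do not show how many *TIMP2* reads the overlap took.

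*TIMP3* (chr22:32801705-32863041), the inhibitor that stays bound to the matrix and also blocks ADAM proteinases, had the largest fitted change of the 3 TIMPs in shD3 #1, siD3 #3 and deep shD3 #1. It had 8, 6 and 9 counts in sh1Control and 19, 29 and 21 in shD3 #1. It had 2 and 6 counts in siControl and 68, 45 and 101 in siD3 #3. In shD3 #4 it had 14, 6 and 6 counts against 5, 6 and 16 in sh4Control.

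The knockdown libraries lay above their controls in shD3 #1 and siD3 #3 and overlapped with them in shD3 #4. The pooled ratio was 3.83 (23 against 69 counts, 2.36 to 6.44) in shD3 #1, 14.9 (8 against 214 counts, 7.42 to 34.9) in siD3 #3 and 0.999 (27 against 26 counts, 0.560 to 1.78) in shD3 #4. The fitted log2 fold changes were 1.95 (SE 0.326) in shD3 #1 and 3.84 (SE 0.549) in siD3 #3. The siD3 #3 value moved to 3.09 without siControl replicate 1 and to 4.96 without siControl replicate 2. *TIMP3* did not pass the main filter in shD3 #4. With every gene of at least 1 count admitted, its log2 fold change there was -0.01 (SE 0.442, adjusted p = 0.991, edgeR). The interval of its ratio there holds neither the 3.83 nor the 14.9 of the other knockdowns.

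*TIMP3* had, in the deep libraries, 9, 14 and 11 counts in controls and 11, 12 and 24 in shD3 #1. At 0.153 to 0.278 cpm and 0.358 to 0.664 cpm the normalised levels did not overlap. *TIMP3* passed the filter with 3 knockdown libraries and 1 control library above its limit, and had a log2 fold change of 1.24 (SE 0.389, adjusted p = 0.0122, edgeR). It was 1.21 when genes of at least 1 count were admitted (SE 0.445, adjusted p = 0.0177). The call was lost with DESeq2 (adjusted p = 0.062), without deep sh1Control replicate 1 (adjusted p = 0.0577) and without deep shD3 #1 replicate 3 (adjusted p = 0.109).

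A gene was called when its adjusted p was under 0.05 and its change at least 1.5-fold in either direction. In shD3 #1, 5 of 8 members tested were called higher (*MMP1*, *MMP10*, *TIMP3*, *TIMP1* and *MMP2*), where 14.5% of all genes tested were, and 0 lower against 14.6%. DESeq2 also called 0 lower. In siD3 #3, 7 of 8 were called higher against 12.5% of all genes, and 0 lower against 9.42%, by edgeR and by DESeq2. These 2 comparisons chose the members, so nothing is read from these counts.

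In shD3 #4, 5 members were tested and edgeR called 0 higher and 0 lower, against 8.00% and 4.49% of all genes. At an unadjusted p under 0.05, 2 were higher (*MMP7* and *TIMP1*) and 0 lower, and DESeq2 called 0 either way. Their median log2 fold change was -0.02, against 0.01 over all genes. Of the members, 7 were tested in the deep libraries, of which 2 were called higher (*MMP1* and *TIMP3*) against 15.0% and 2 lower (*MMP2* and *MMP14*) against 14.1% of all genes. Their median was 0.09, against -0.02 over all genes. *MMP1* and, in part, *TIMP3* passed the filter through the knockdown libraries, so the count of members higher and the median there support nothing.

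The 3 members left out of the deep test, *MMP3*, *MMP10* and *MMP13*, and the 5 left out in shD3 #4, which also include *MMP1* and *TIMP3*, did not pass the filter. Under the filter of at least 1 count, edgeR tested 9 members in shD3 #4 and called 0 of them, while DESeq2 gave an adjusted p to 6. The plot of fitted changes sets all values side by side.

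**Figure D4:**
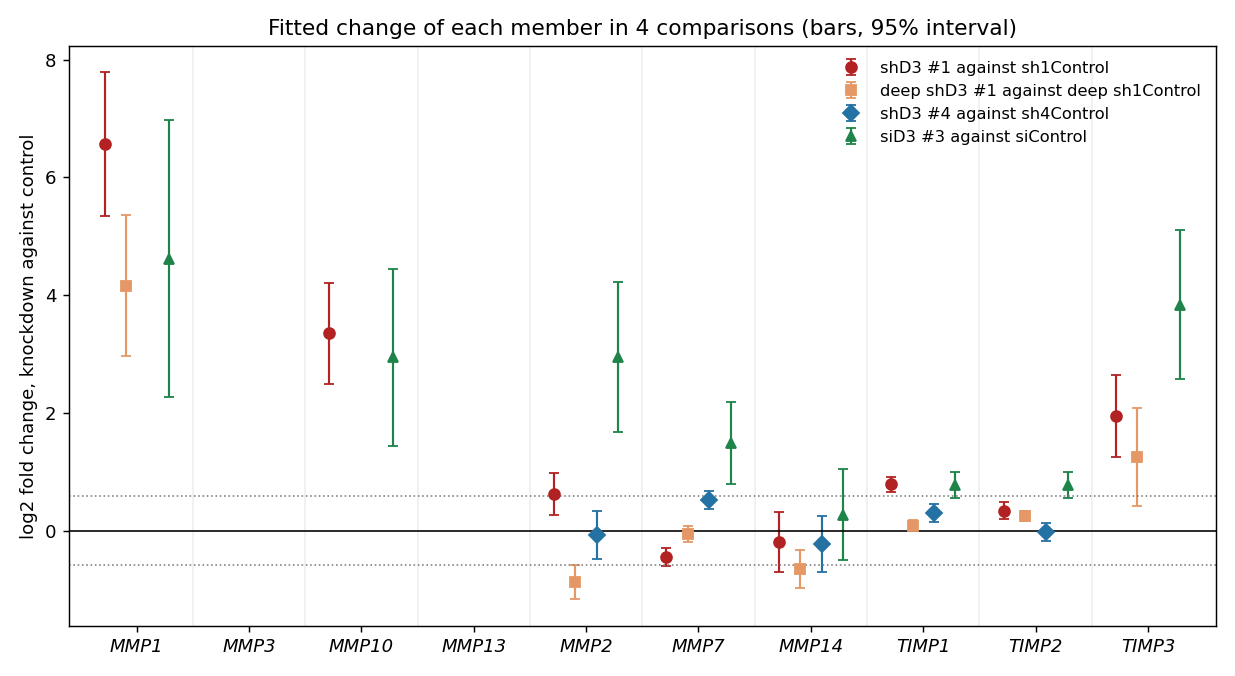
Fitted log2 fold change (edgeR, knockdown against control) of each member that passed the count filter, in 4 comparisons marked by colour and symbol, with 95% intervals as bars and the 1.5-fold threshold dotted. *MMP1* lay at 6.56, 4.16 and 4.62 in shD3 #1, deep shD3 #1 and siD3 #3, and *MMP2* and *MMP7* lay on both sides of 0.

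The summed RNA of the 7 MMPs relative to the 3 TIMPs lay below the controls in shD3 #1 and above them in shD3 #4. In cpm per kb, the ratio of MMPs to TIMPs was 0.390 ± 0.0350 in sh1Control and 0.201 ± 0.0171 in shD3 #1 (SD, n = 3 each). In siControl it was 0.702 and 0.810, and in siD3 #3 0.794, 1.45 and 1.54. In sh4Control it was 0.413 ± 0.0411 and in shD3 #4 0.496 ± 0.0457.

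The ratio was lower in all shD3 #1 libraries than in their controls, higher in all shD3 #4 libraries (0.458 to 0.547 against 0.366 to 0.441), and in siD3 #3 overlapped with one control library through the third replicate. Among deep libraries it was 0.149 to 0.182 in shD3 #1 and 0.183 to 0.203 in controls. The MMP sums rest mainly on *MMP7*, as the shares above show, and the ratios also depend on the TIMP sums. From sh1Control to shD3 #1 the mean TIMP sum went from 56.3 to 90.9 and the mean MMP sum from 21.9 to 18.2. In the deep libraries these means went from 156 to 173 and from 30.1 to 28.5. The ratios were not tested, and 3 libraries against 3 cannot give an exact two-sided p below 0.10.

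**Figure D5:**
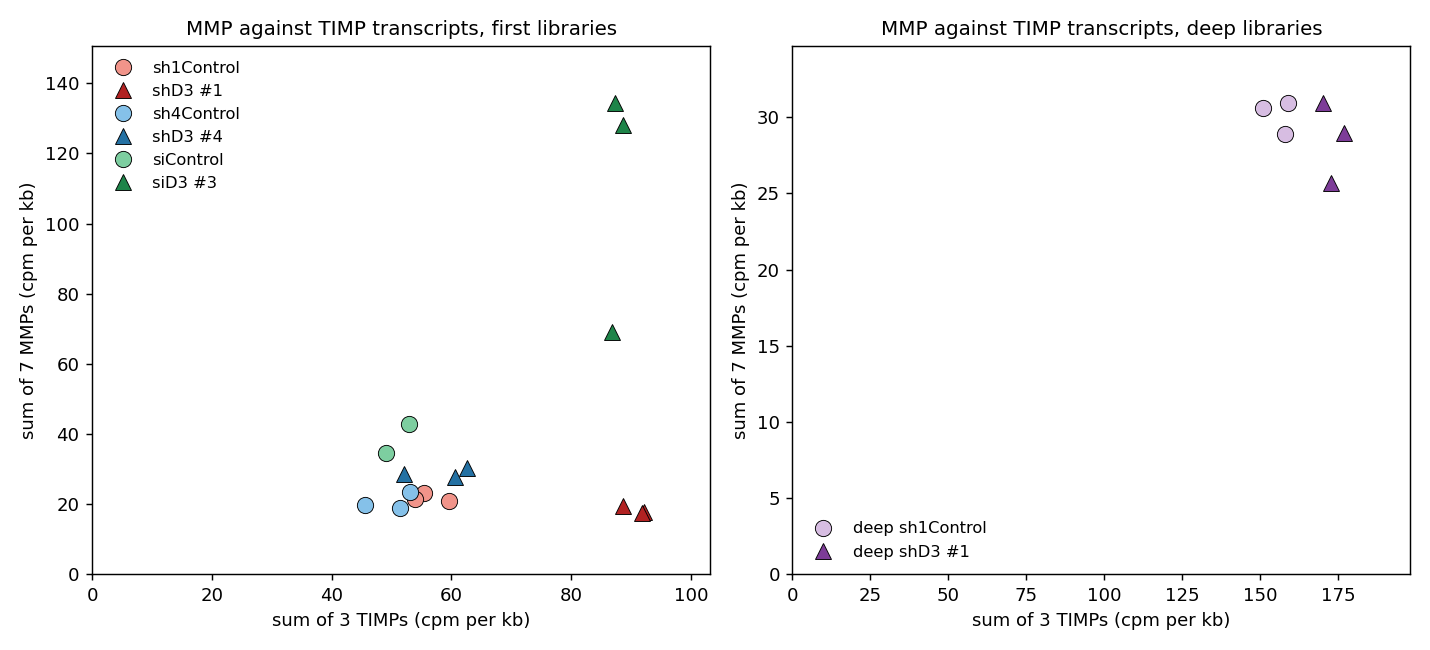
Summed RNA of the 7 MMPs (vertical axis) against the 3 TIMPs (horizontal axis), both in cpm per kb of exon on linear axes from 0, one point per library, with circles for controls and triangles for knockdowns. shD3 #1 lies to the right of its controls at 88.6 to 92.2 for the TIMPs, and siD3 #3 lies to the right and above, at 69.0 to 135 for the MMPs.

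The lists of related genes that follow are to be read against all genes tested, of which 8.00% were called higher and 4.49% lower in shD3 #4, 15.0% and 14.1% in the deep libraries, 14.5% and 14.6% in shD3 #1, and 12.5% and 9.42% in siD3 #3. The median log2 fold change over all genes was 0.01 in shD3 #4 and -0.02 in the deep libraries. Of 16 other MMP genes, 5 were tested in shD3 #4, with 2 called higher and 0 lower, and 6 in the deep libraries, with 2 higher and 0 lower. Their median log2 fold changes were 0.15 and 0.28. *MMP16*, a membrane-type MMP, rose in both, with log2 fold changes of 1.11 (SE 0.126, adjusted p = 1.07e-07) and 1.13 (SE 0.0655, adjusted p = 1.98e-09, edgeR). It held 13.2 to 15.8 cpm in shD3 #1 against 4.65 to 4.74 cpm, and overlapped in siD3 #3, at 4.56 to 8.69 cpm against 3.52 to 6.46 cpm. *MMP28* (epilysin) rose in shD3 #4, from 3.40 to 3.49 cpm in controls to 10.8 to 12.3 cpm (log2 fold change 1.75, SE 0.120, adjusted p = 1.36e-11). In shD3 #1 it stood at 0.843 to 1.28 cpm against 3.40 to 4.64 cpm, and in siD3 #3 at 3.20 to 7.14 cpm against 1.63 to 2.24 cpm. In the deep table it was near 0, at 0.0894 cpm on average in controls and 0.134 cpm in shD3 #1. *MMP23B*, which passed the filter only through the deep knockdown libraries, held 0.256 to 0.586 cpm there against 0.119 to 0.162 cpm and is 1 of the 2 counted as higher. In shD3 #1 and siD3 #3, 1 and 3 of these genes were called higher and 1 and 0 lower.

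6 other MMP inhibitors had 5 tested in each comparison. In shD3 #4, 1 was called higher and 1 lower, and for deep shD3 #1 these numbers were 3 and 0, with medians of 0.28 and 0.97. *SPOCK3*, a testican, rose in both (1.40, SE 0.279, adjusted p = 2.28e-04 and 4.00, SE 0.0995, adjusted p = 3.73e-13). It went from 1.24 to 1.38 cpm in deep controls to 19.8 to 22.5 cpm in deep shD3 #1. *SPOCK1* fell in shD3 #4 (-1.04, SE 0.118, adjusted p = 1.04e-07), and *TFPI2* rose in the deep libraries (1.10, SE 0.0396, adjusted p = 1.49e-11). In shD3 #1 and siD3 #3, 3 and 2 were called higher and 0 lower in each.

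16 genes of plasminogen and pro-MMP activation, which include the proteases that remove MMP propeptides, had 3 called higher and 1 lower of 11 tested in shD3 #4, and 4 higher and 1 lower of 11 in the deep libraries, with medians of 0.15 and 0.29. *PCSK5*, a furin-like proprotein convertase, rose in both (1.67, SE 0.103, adjusted p = 1.67e-12 and 2.89, SE 0.0855, adjusted p = 1.77e-12). In shD3 #1 it stood at 17.7 to 21.0 cpm against 5.86 to 6.24 cpm in sh1Control. In siD3 #3 its mean was 15.5 ± 5.70 cpm (SD, n = 3) against 7.07 ± 2.57 cpm (n = 2), and the lowest knockdown library was level with the higher control. The serine protease gene *ST14* rose in the deep libraries (1.69, SE 0.293, adjusted p = 1.51e-04). *HPN*, another, passed the filter in shD3 #4 only through the knockdown libraries, at 0.571 to 0.802 cpm against 0.159 to 0.483 cpm, and is 1 of the 3 counted as higher. In shD3 #1 and siD3 #3, 6 and 6 were called higher and 1 and 0 lower.

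Of 30 ADAM and ADAMTS genes, relatives of the MMPs, 5 were called higher and 0 lower of 19 tested in shD3 #4, and 4 higher and 4 lower of 20 in the deep libraries, where the shares over all genes were 8.00% and 4.49%, and 15.0% and 14.1%. The medians were 0.30 and 0.26. *ADAMTS6* rose in both (1.14, SE 0.180, adjusted p = 1.33e-05 and 3.53, SE 0.118, adjusted p = 6.34e-12), as did *ADAM28* (1.17, SE 0.156, adjusted p = 1.23e-06 and 2.54, SE 0.173, adjusted p = 1.02e-08). In shD3 #1 and siD3 #3, 8 and 6 were called higher and 5 and 1 lower.

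Genes that encode MMP inducers, and the transcription factors that bind MMP promoters, included several that fell in shD3 #4 and rose in the deep shD3 #1 libraries. The difference between these comparisons was not tested. Of 20 factor genes of the AP-1, ETS, RUNX and related families, 0 were called higher and 3 lower of 19 tested in shD3 #4, by edgeR, against 8.00% and 4.49% of all genes, with a median of -0.11. For deep shD3 #1, 7 were called higher and 0 lower of 20, against 15.0% and 14.1%, with a median of 0.37. In shD3 #1 and siD3 #3, 10 and 3 were called higher and 3 and 2 lower.

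*JUN*, the core AP-1 subunit, had 24.4 to 27.9 cpm in sh4Control and 11.5 to 12.9 cpm in shD3 #4. It fell there by 1.08 on the log2 scale (SE 0.0846, adjusted p = 1.74e-10, edgeR). In deep shD3 #1 it rose from 87.8 to 93.5 cpm in controls to 160 to 191 cpm (log2 fold change 0.93, SE 0.0584, adjusted p = 4.22e-09). It stood at 77.3 to 82.8 cpm in shD3 #1 against 21.7 to 22.2 cpm, and at 60.0 to 92.5 cpm in siD3 #3 against 32.1 and 43.6 cpm.

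*FOSL1*, its Fos-family partner FRA1, went the same way. It fell by 1.68 (SE 0.138, adjusted p = 4.11e-10) in shD3 #4 and rose by 0.65 (SE 0.0872, adjusted p = 1.36e-05, edgeR) in the deep libraries. It was at 26.9 to 30.7 cpm in shD3 #1 against 7.15 to 9.12 cpm. *RUNX2*, which passed the filter in shD3 #4 only through the controls, held 0.171 to 0.399 cpm there against 0.767 to 1.02 cpm and is 1 of the 3 counted as lower. *JUND* rose in the deep libraries (0.71, SE 0.0508, adjusted p = 1.64e-08).

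17 inducer genes, mainly cytokines and EGF-family ligands, had 1 called higher and 5 lower of 12 tested in shD3 #4, and 5 higher and 2 lower of 14 in the deep libraries, against 8.00% and 4.49%, and 15.0% and 14.1%, of all genes. The medians were -0.47 and 0.35. *CXCL8* (interleukin 8) fell in shD3 #4 from 10.7 to 12.3 cpm in controls to 3.19 to 5.24 cpm (-1.40, SE 0.133, adjusted p = 5.04e-09). It rose in the deep libraries from 37.2 to 46.9 cpm to 84.9 to 105 cpm (1.10, SE 0.0874, adjusted p = 5.71e-08, edgeR). *EREG* (epiregulin) also fell in shD3 #4 (-1.06, SE 0.0706, adjusted p = 8.25e-12) and rose in the deep libraries (0.98, SE 0.0962, adjusted p = 5.03e-07). The EGF receptor ligands *HBEGF* (1.22, SE 0.145, adjusted p = 3.80e-06) and *TGFA* (1.16, SE 0.0554, adjusted p = 2.40e-10) rose in the deep libraries. In shD3 #1 and siD3 #3, 5 and 6 inducers were called higher and 1 and 1 lower. In siD3 #3, where *MMP1* was higher, *CXCL8* stood at 92.5 to 142 cpm against 18.2 and 35.8 cpm. *HBEGF* stood at 9.07 to 22.2 cpm against 2.98 and 4.47 cpm. Both were called higher there, as was *JUN*. *FOSL1* stood at 26.3 to 46.8 cpm against 12.6 and 23.7 cpm and was not called, and *EREG* overlapped at 55.2 to 179 cpm against 95.8 and 138 cpm. In shD3 #4 *MMP1* had 5 counts against 2 in its controls, which were too low for a fall to show. The part of the inducers and factors in the *MMP1* values was not tested.

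Over the 17 first libraries, the 5 genes whose log2 cpm had the highest Pearson correlation with that of *MMP1*, of 18672, were *LYST* (r = 0.984), *ARHGAP31* (0.970), *FAM219A* (0.970), *ATG12* (0.969) and *MINDY2* (0.968). Each r rests mostly on the 6 libraries of shD3 #1 and siD3 #3, and libraries of a group are not independent of their treatment. Among the members the likeness was 0.933 for *MMP10*, 0.869 for *TIMP3* and 0.847 for *TIMP1*. It was 0.725 for *MMP2*, 0.664 for *TIMP2*, 0.216 for *MMP7* and -0.241 for *MMP14*. The deep libraries, which measure shD3 #1 again, were not used in this ranking. In them *LYST* had a log2 fold change of 1.04 (SE 0.0521, adjusted p = 4.27e-10, edgeR), *ARHGAP31* of 1.33, *FAM219A* of 0.89 and *MINDY2* of 1.02. *ATG12* was at 0.19 (SE 0.0653, adjusted p = 0.0197), below the threshold on size. In shD3 #4 none of the 5 was called, with log2 fold changes of 0.01 to 0.28. The ranking did use the shD3 #4 and sh4Control libraries, in which *MMP1* was near 0. Genes picked for their likeness to it were bound to change little there, so nothing is read from this.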

How the data were processed

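The authors depleted total RNA of A549 cells of ribosomal RNA, made directional libraries, and aligned trimmed reads to GRCh38.p14 (Trimmomatic 0.40 and STAR 2.7.10a in the submitters' processing notes). The deposited values are raw counts of reads per gene, as the authors' aligner gave them, without normalisation. Their methods name a RefSeq annotation, but the first table lists Ensembl identifiers. The strand setting was not given in the sources used here, and a read on 2 overlapping genes may be lost to both. The table of the first libraries and that of the deep libraries were normalised and tested apart. Gene symbols, positions and exon lengths of the first table came from GENCODE 44.

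Each knockdown was compared with its own control, as in the study's design, in edgeR 4.0.16 (R 4.3.3) with TMM, filterByExpr and the quasi-likelihood test. P-values were adjusted over all genes tested by Benjamini-Hochberg, and 95% intervals and SEs are of the log2 fold change. Cpm values, counts per normalised library size, use TMM factors over all libraries of a table, and so differ slightly from the fits. Ratios of pooled counts per normalised library size carry exact conditional intervals, which cover counting error only. The code was checked on simulated data in which every gene had the same dispersion, so that check says nothing of the spread of these replicates. Figures and tables used python 3.11.15, scipy 1.17.1 and matplotlib 3.10.9, and motif searches used RefSeq promoters.

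The members and gene lists were chosen with earlier results of these data known. Lists were other MMPs, other MMP inhibitors, plasminogen and pro-MMP activation, ADAM and ADAMTS genes, MMP inducers, MMP promoter factors and markers of epithelial cells, fibroblasts and leukocytes. From each pathway list those genes are named that were called alike in shD3 #4 and deep shD3 #1, with the 2 largest changes called in each of these. Also named are *THUMPD3*, genes overlapping a member or beside *MMP1* in its cluster, and the 5 genes most like *MMP1*. *CEP295NL*, the promoter matches and single markers were added to these.

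Replicates differed by more than sampling noise in every group (chi-square per degree of freedom 1.73 to 29.9 over genes with at least 10 counts). Alternatives were DESeq2 1.42.0, its size factors in edgeR, other filters, each replicate left out, the replicate number as a block, a log2 threshold of 1 and 1 fit of all 17 first libraries.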

Additional observations from a re-analysis of the deposited data

Results flagged for a closer look

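2 members lay wholly above the controls in one comparison and wholly below them in another, which drew attention to them. The differences were not tested. For *MMP2* the log2 fold change in shD3 #1 exceeded that in deep shD3 #1 by 1.50, and that in siD3 #3 exceeded that in deep shD3 #1 by 3.83. For *MMP7* the log2 fold change in shD3 #1 minus that in shD3 #4 was -0.97, and minus that in siD3 #3 was -1.94. Between the first and the deep libraries of a group, deviations from the group mean had correlations of -0.0231 to 0.0995 for the same replicate number and of -0.121 to 0.0820 for different numbers.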

How the results depend on the processing

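Of the counts of members called, those higher in shD3 #1 went from 5 to 2 when each library had to hold 10 counts and to 3 with a log2 threshold of 1, and those higher in siD3 #3 from 7 to 4 under that filter. It took the members higher in the deep libraries from 2 to 0, since it removed *MMP1* and *TIMP3*, and a threshold of 1 took the members lower there from 2 to 0. With a replicate left out, shD3 #1 had 4 to 5 members higher, shD3 #4 0 to 1, siD3 #3 4 to 7 and the deep libraries 1 to 3, with 1 to 2 lower. The siD3 #3 calls of *MMP1* and *MMP10* were lost without either siControl library, that of *MMP10* also without siD3 #3 replicate 1 or 3, and that of *MMP7* without siControl replicate 2. Same-numbered replicates did not deviate together (correlations of deviations from the group means between -0.0850 and 0.115), so the numbers were not taken to pair the samples. With the replicate block the counts were 5, 0, 7 and 2 higher and 2 lower in the deep libraries, which changed no call. *MMP10* entered the deep calls with DESeq2, with a filter of 1 count and without deep shD3 #1 replicate 2. With a replicate left out, small effects changed sign: *MMP2* in shD3 #4 ranged over -0.24 to 0.11 (the latter without shD3 #4 replicate 3), *TIMP2* over -0.11 to 0.037 (without sh4Control replicate 3) and *MMP7* in the deep libraries over -0.12 to 0.012 (without deep shD3 #1 replicate 2). Of the single values in the tested comparisons, 127 kept direction and side of the threshold, 3 changed sign, 4 lost a call and 1 gained one. The causes were not tested. Depth limits *MMP1*, *MMP3*, *MMP10*, *MMP13* and *TIMP3*, which had under 20 counts in every control library.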
